A study of Mus musculus with 18 samples.

Results

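In bone of mice with a conditional knockout of the parathyroid hormone receptor in osteoprogenitors, GFP-positive cells were set against GFP-negative, Tm-positive cells. The comparison holds 6 of the 18 libraries of the series. 3 of them are KO_Bone_GFP+ libraries and 3 are KO_Bone_GFP-Tm+ libraries, chosen by title, and libraries that carry the same replicate number form a pair. All 6 came from mice with a conditional PTH1R KO at postnatal day 21, and the submitters describe the sorted cells as osterix-derived. Mice labelled wild type gave 3 Ctrl_Bone_GFP+ and 3 Ctrl_Bone_GFP-Tm+ libraries of the same age, and the subset difference is compared between the genotypes. Control and marrow libraries also entered the filter, the scaling and the estimate of the spread behind the knockout p-values, since all 18 libraries were fitted together. The labels give no promoter for the Cre, for GFP or for the Tm marker, and do not say whether a library holds cells of 1 animal or of pooled animals, so a p-value reflects only how these libraries vary. What GFP marks is described here by the RNA alone.

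The receptor PTH1R is a G-protein-coupled receptor on the cell surface that binds parathyroid hormone and parathyroid hormone-related protein, and signals mainly through Gs and cyclic AMP. In the growth plate, Indian hedgehog from prehypertrophic chondrocytes and parathyroid hormone-related protein from early chondrocytes form a feedback loop, and the receptor delays hypertrophy. In osteoblasts and osteocytes the same receptor controls bone formation, the Wnt inhibitor sclerostin and the osteoclast factor RANKL. Osterix, encoded by Sp7, is a transcription factor needed for osteoblast formation that hypertrophic chondrocytes also express.

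Between 16497792 and 27160257 counts were assigned to genes per library, and 18963 to 20112 genes had at least 1 count. The 10 most counted genes took 36.9 to 38.2% of counts in GFP+ libraries and 46.8 to 55.7% in GFP-Tm+ libraries. Mitochondrial genes took 0.125 to 0.165% in GFP+ and 0.246 to 0.294% in GFP-Tm+. Levels below are CPM, a count as its part of the library total, with totals scaled by the trimmed mean of M-values (TMM). A count of 0 allows up to 0.137 to 0.216 CPM, depending on the library, which covers counting error only. The first principal component of the 6 libraries held 71.1% of the variance and separated the subsets. The second held 9.13% and set the 3 replicate numbers apart in the same order in both subsets. In every group of the series replicate 3 carried Xist and few Y-linked counts, as female cells do, and replicates 1 and 2 the reverse.

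The targeted gene, Pth1r, lies on the minus strand of mm10 chromosome 9 from 110722085 to 110747145, and carries the ID ENSMUSG00000032492.14. It was counted at 4038, 3255 and 2725 CPM in the GFP+ libraries and 1398, 1137 and 1031 CPM in the GFP-Tm+ libraries. Every GFP+ library lay above every GFP-Tm+ library, by 2.8-fold (log2 fold change 1.48 ± 0.08, adjusted p = 3.42e-09; edgeR quasi-likelihood F-test, n = 3 against 3). In control bone the levels were 4481, 4842 and 5035 CPM in control GFP+ and 1674, 1669 and 1911 CPM in control GFP-Tm+, so each knockout library lay below the controls of its subset, and the difference between subsets was alike in size (control log2 fold change 1.45 ± 0.08; difference 0.03 ± 0.11, adjusted p = 0.906). Which exons are deleted is not stated in the labels, and the counts cover all its exons. Sp7 (mm10 chromosome 15, 102356606 to 102367182, minus strand), the gene of osterix, was lower in GFP+, at 141, 155 and 171 CPM in the GFP+ libraries and 276, 219 and 299 CPM in the GFP-Tm+ libraries (log2 fold change -0.75 ± 0.11, adjusted p = 7.78e-05).

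The markers separated the subsets in a clear order. Of the 6 chondrocyte markers fixed for the check (Sox9, Col2a1, Acan, Col9a1, Matn3 and Hapln1), each was higher in GFP+, with log2 fold changes of 2.98 to 3.73. Of the 8 osteoblast markers, Col1a1, Col1a2, Bglap, Ibsp, Spp1 and Sp7 were lower in GFP+, Runx2 was not called at 0.04 and Alpl was higher at 0.42. Marrow stroma markers (Cxcl12, Lepr, Kitl, Adipoq and Ebf3) and fibroblast markers (Dcn, Lum, Dpt and Pi16) were lower in GFP+ in each case. Foxc1, also a stroma marker, was higher at 0.60. Both subsets carry the label bone cells. Relative to each other, the GFP+ libraries thus held more of the cartilage transcripts. The GFP-Tm+ libraries held more of most osteoblast, fibroblast and stroma transcripts. This does not rank levels within a subset, since Col2a1 alone still took 1.74 to 1.98% of counts in GFP-Tm+. In bulk libraries, fewer cells of a type and less RNA per cell cannot be told apart, which holds for every level below.

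**Figure D1:**
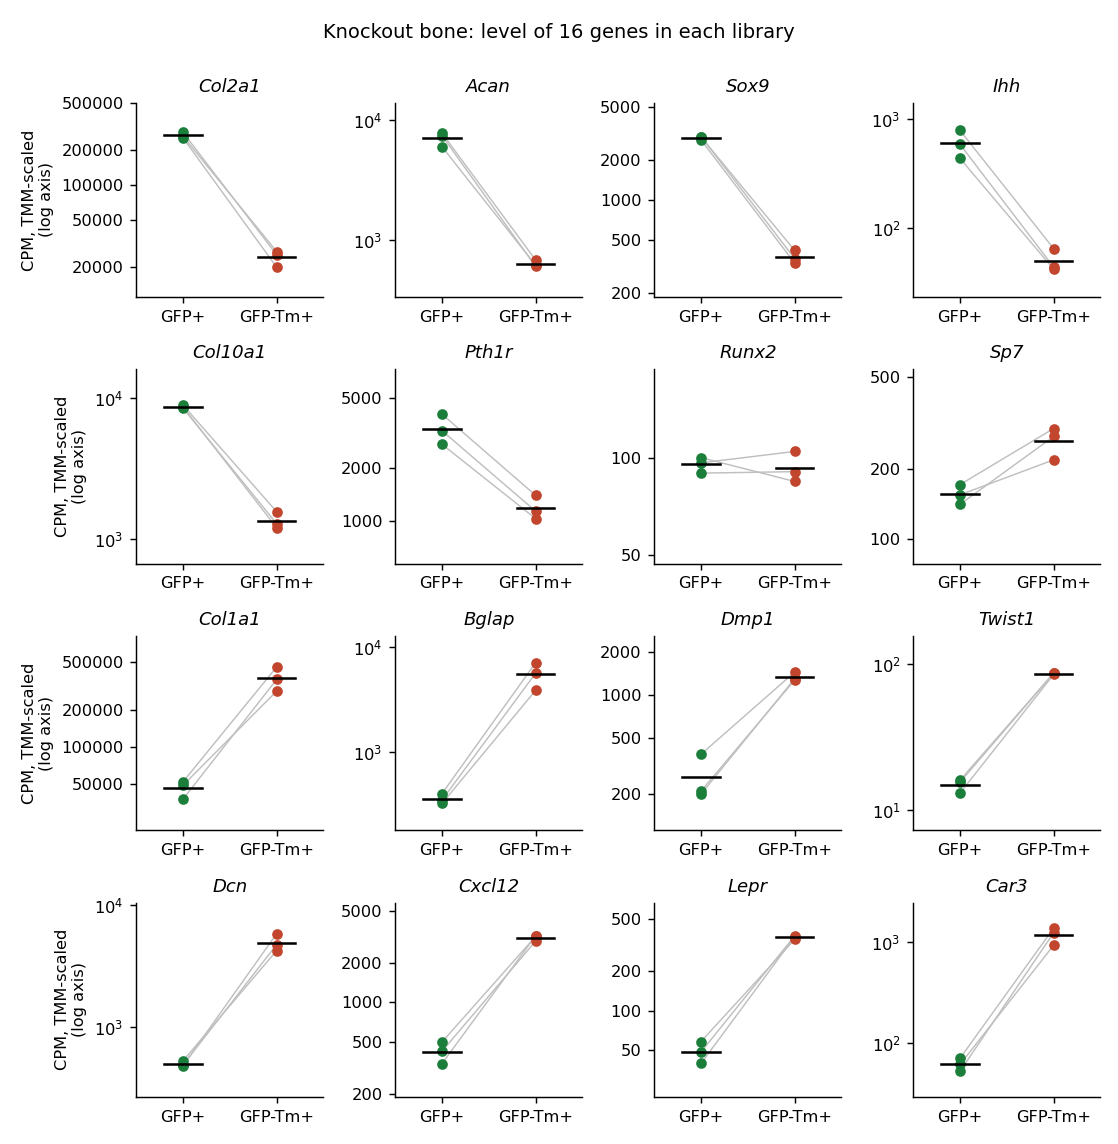
Level of 16 genes in each knockout bone library, as TMM-scaled CPM on log axes that differ between panels. Green points are the 3 GFP+ and red points the 3 GFP-Tm+ libraries, grey lines join libraries of the same replicate number and black bars are means. Cartilage genes such as Col2a1 lie higher in GFP+, bone matrix and stroma genes such as Bglap and Lepr lie higher in GFP-Tm+, and the groups overlap only for Runx2.

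Across the genome the difference was broad. Of 15516 genes tested, 7883 (50.8%) were called at an adjusted p under 0.05, 3950 (25.5%) higher and 3933 (25.3%) lower in GFP+. The split depends on the scaling, which holds the middle of the genes near 0, and was 4067 higher and 3563 lower with library totals and 4333 and 3574 with the length trend removed. At least 2-fold changes were called for 1953 genes higher and 2293 lower. Those shares are the background of the member counts below. The libraries of the subsets did not overlap for 8803 genes, or 56.7%. The median log2 fold change over all genes was 0.000596. The lists below were written out with earlier results of these data known, and they are described by counts and medians only. Of the listed members Ankh, Fgf23, Trpv6, Destn, Prrg4, Bst1, Lep, Thy1, Ramp3, Areg, Kremen2, Rnf43, Fgf9, Dll4 and Ctage5 did not pass the filter on low counts or matched no row, and the counts below are of members tested.

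**Figure D2:**
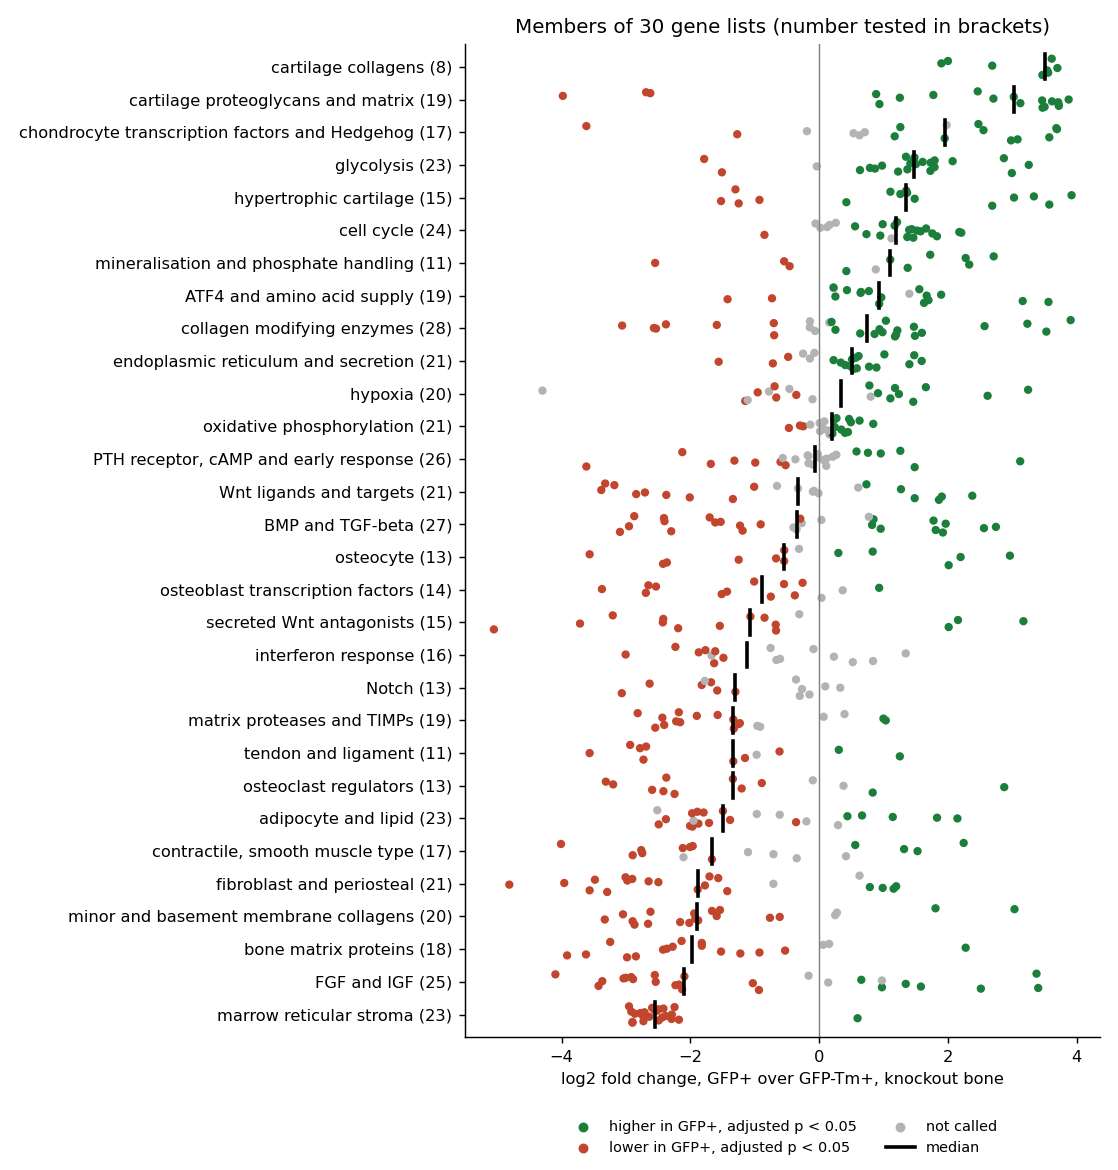
Log2 fold change of GFP+ over GFP-Tm+ in knockout bone for each tested member of 30 gene lists, ordered by list median (black bars). Green members were called higher, red members lower and grey members were not called. Cartilage lists stand at the top, with medians of 3.51 and 3.03, and marrow reticular stroma at the bottom, with a median of -2.55.

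Transcription factors of cartilage were mostly higher in the GFP+ cells. Sox9, the master regulator of chondrocytes (mm10 chromosome 11, 112782224 to 112787760, plus strand), reached 2991, 2825 and 2974 CPM in the GFP+ libraries and 362, 335 and 417 CPM in the GFP-Tm+ libraries, 7.9-fold more (log2 fold change 2.98 ± 0.09, adjusted p = 2.12e-11). Of 17 genes of this list, 10 rose, 2 fell and 5 were not called, with a median log2 fold change of 1.95. The 2 became 1 without a filter on low counts, or without any 1 of the knockout libraries other than GFP+ replicate 1. Foxa3 and Foxa2, forkhead factors of hypertrophic chondrocytes, stood at 3.69 and 3.697. Foxa3 had 347, 328 and 306 CPM in the GFP+ libraries and 27.3, 24.9 and 24 CPM in the GFP-Tm+ libraries. Ihh, the Hedgehog ligand made by prehypertrophic chondrocytes, had 787, 586 and 436 CPM in the GFP+ libraries and 65, 44 and 42.1 CPM in the GFP-Tm+ libraries, and the groups lay far apart (log2 fold change 3.58 ± 0.17, adjusted p = 8.95e-10). Its receptor and target Ptch1 rose by 1.17, while the Hedgehog factor Gli1, at 0.63, and the signal transducer Smo, at -0.19, were not called. Pthlh, the gene of parathyroid hormone-related protein, was 1 of the 2 that fell, with 0.822, 0.291 and 0.72 CPM in the GFP+ libraries and 6.51, 12.8 and 4.59 CPM in the GFP-Tm+ libraries (log2 fold change -3.62 ± 0.61, adjusted p = 1.90e-04), and Gli2, at -1.27, was the other.

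The cartilage collagens rose together. All 8 members tested were called higher in GFP+, with a median of 3.51. Col2a1, the main fibrillar collagen of cartilage (mm10 chromosome 15, 97975602 to 98004695, minus strand), alone took 21.2 to 22.6% of all counts in GFP+ libraries and 1.74 to 1.98% in GFP-Tm+ libraries. Its level was 279885, 251522 and 260040.0 CPM in the GFP+ libraries and 25248, 19746 and 26864 CPM in the GFP-Tm+ libraries (log2 fold change 3.47 ± 0.15, adjusted p = 3.79e-10). With DESeq2 a log2 fold change of 3.50 missed the threshold, at an adjusted p of 0.0698. The 3 chains of collagen IX, which coats the collagen II fibril, moved alike: Col9a1 by 3.56, Col9a2 by 3.54 and Col9a3 by 3.703. Col9a3, for example, had 22406, 19013 and 18636 CPM in the GFP+ libraries and 1626, 1416 and 1563 CPM in the GFP-Tm+ libraries, with no overlap. Col11a1 and Col11a2, whose chains nucleate that fibril, rose less, by 1.9 and 2.002.

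Non-collagenous cartilage matrix followed the same direction. Of 19 members, 16 rose and 3 fell, with a median of 3.03. Epyc, a small leucine-rich proteoglycan of growth cartilage, had 933, 775 and 906 CPM in the GFP+ libraries and 66.3, 54.6 and 56.6 CPM in the GFP-Tm+ libraries (log2 fold change 3.88 ± 0.12, adjusted p = 2.04e-11). Matn1, a matrilin that links matrix fibrils, had 3407, 2517 and 2439 CPM in the GFP+ libraries and 245, 185 and 201 CPM in the GFP-Tm+ libraries (log2 fold change 3.72 ± 0.13, adjusted p = 3.73e-11). Matn3, a matrilin of the growth plate, stood at 6773 ± 607 CPM in GFP+ against 514 ± 79 CPM in GFP-Tm+ (SD, n = 3 each). Chad, a cell-binding matrix protein, had 10044, 9981 and 10034 CPM in the GFP+ libraries and 1268, 1088 and 1356 CPM in the GFP-Tm+ libraries, so its GFP+ libraries were nearly equal (log2 fold change 3.03 ± 0.09, adjusted p = 2.04e-11). The 3 members that fell were Prg4 at -3.98, Cilp at -2.69 and Cilp2 at -2.62. Prg4 encodes lubricin of the joint surface, and it had 0.685, 0.97 and 1.58 CPM in the GFP+ libraries and 9.25, 22.2 and 19.2 CPM in the GFP-Tm+ libraries.

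Genes of hypertrophic cartilage were split. Of 15 tested, 11 rose and 4 fell, with a median of 1.35. Ppa1, an inorganic pyrophosphatase, had 3436, 3071 and 2730.2 CPM in the GFP+ libraries and 253, 179 and 181 CPM in the GFP-Tm+ libraries (log2 fold change 3.92 ± 0.13, adjusted p = 3.33e-11). Slc38a3, an amino acid transporter, and Panx3, a pannexin channel of hypertrophic chondrocytes and osteoblasts, rose by 3.34 and 3.03. Col10a1, the defining collagen of the hypertrophic zone, had 8906, 8667 and 8475 CPM in the GFP+ libraries and 1553, 1193 and 1276 CPM in the GFP-Tm+ libraries (log2 fold change 2.69 ± 0.23, adjusted p = 3.66e-07). The 4 that fell were Mmp13 at -1.25, Spp1 at -1.52, Ibsp at -0.93 and Tmem100 at -1.3. Mmp13, Spp1 and Ibsp are made by terminal hypertrophic chondrocytes and by osteoblasts alike.

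Of 11 genes of mineralisation and phosphate handling, 7 rose and 3 fell. Enpp2, which makes lysophosphatidic acid, had 760.2, 705 and 720.2 CPM in the GFP+ libraries and 126, 99.2 and 109 CPM in the GFP-Tm+ libraries (log2 fold change 2.71 ± 0.09, adjusted p = 3.49e-11). Smpd3, a neutral sphingomyelinase needed for mineralisation, rose by 2.28 and Enpp1, which makes the mineral inhibitor pyrophosphate, by 1.38. The paired phosphate transporters moved in opposite directions. Slc20a2 fell, with 35.3, 31.8 and 29.5 CPM in the GFP+ libraries and 197, 215 and 155 CPM in the GFP-Tm+ libraries (log2 fold change -2.55 ± 0.13, adjusted p = 1.09e-09), and Slc20a1 rose by 2.33. Alpl, the tissue-nonspecific alkaline phosphatase, had 3728, 3807 and 3257 CPM in the GFP+ libraries and 2867, 2703 and 2481 CPM in the GFP-Tm+ libraries, which is a small rise without overlap (log2 fold change 0.42 ± 0.09, adjusted p = 9.75e-04).

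Transcription factors of osteoblasts were mostly lower in GFP+. Of 14 tested, 11 fell, Atf4 alone rose, and Runx2 and Msx2 were not called; the median was -0.88. Twist1, which restrains osteoblast maturation, had 13.2, 15.6 and 16.1 CPM in the GFP+ libraries and 85.3, 87.1 and 87 CPM in the GFP-Tm+ libraries (log2 fold change -2.54 ± 0.13, adjusted p = 1.31e-09). Dlx5 and Msx1, homeobox factors of skeletal precursors, fell by 1.51 and 1.43 on the log2 scale. Runx2, which both chondrocytes and osteoblasts use, had 101, 89.97 and 96.8 CPM in the GFP+ libraries and 84.8, 90.9 and 105 CPM in the GFP-Tm+ libraries, so its groups overlapped and the change of 0.04 ± 0.08 was not called (adjusted p = 0.735).

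Bone matrix genes went the opposite way from cartilage matrix. Of 18 tested, 15 fell, Smpd3 rose and 2 (Bgn and Serpinh1) were not called, with a median of -1.98. Col1a1 and Col1a2, the chains of collagen I, together took 4.48 to 6.28% of counts in GFP+ and 37.1 to 46.1% in GFP-Tm+. Bglap, which encodes osteocalcin of mature osteoblasts (mm10 chromosome 3, 88383501 to 88384464, minus strand), had 347, 322 and 399.6 CPM in the GFP+ libraries and 5589, 3840.5 and 7033 CPM in the GFP-Tm+ libraries, a 15.1-fold lower level (log2 fold change -3.92 ± 0.18, adjusted p = 6.39e-10). Bglap2, its near-identical neighbour, had 109, 107 and 133 CPM in the GFP+ libraries and 1521, 1034 and 1831 CPM in the GFP-Tm+ libraries (log2 fold change -3.62 ± 0.18, adjusted p = 1.07e-09), and reads may be split between the copies in a way the sources used here do not give, so each value is uncertain. Col22a1 fell by 3.25 on the log2 scale. Sparc, an abundant collagen-binding protein, fell by 0.53, and Spp1, osteopontin, had 4433, 4280.0 and 3546 CPM in the GFP+ libraries and 9777, 13995 and 12083 CPM in the GFP-Tm+ libraries (log2 fold change -1.52 ± 0.18, adjusted p = 9.22e-06).

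The RUNX family binds the letters ACCACA, and RUNX2 acts in both lineages, so 3 proximal promoters of genes that went opposite ways are shown. Each is the 250 bases before the gene start, from RefSeq (GRCm38.p6), and capitals mark ACCACA or its reverse complement TGTGGT. Bglap (chr3:88384467-88384716, minus strand) and Spp1 (chr5:104434861-104435110, plus strand; the first of its 2 starts in the table) fell in GFP+, and Matn1 (chr4:130944135-130944384, plus strand) rose. The match begins 132 bases before the start in Bglap, 128 in Spp1 and 134 in Matn1.
Bglap: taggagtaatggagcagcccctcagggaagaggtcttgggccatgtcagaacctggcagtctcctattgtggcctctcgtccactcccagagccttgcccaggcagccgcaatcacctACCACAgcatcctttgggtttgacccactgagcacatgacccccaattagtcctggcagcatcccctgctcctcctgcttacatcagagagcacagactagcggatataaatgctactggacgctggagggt
Spp1: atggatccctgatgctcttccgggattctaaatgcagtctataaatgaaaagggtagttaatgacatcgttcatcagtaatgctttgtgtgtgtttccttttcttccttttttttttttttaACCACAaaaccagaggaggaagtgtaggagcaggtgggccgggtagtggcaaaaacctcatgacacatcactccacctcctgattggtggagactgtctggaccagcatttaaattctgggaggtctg
Matn1: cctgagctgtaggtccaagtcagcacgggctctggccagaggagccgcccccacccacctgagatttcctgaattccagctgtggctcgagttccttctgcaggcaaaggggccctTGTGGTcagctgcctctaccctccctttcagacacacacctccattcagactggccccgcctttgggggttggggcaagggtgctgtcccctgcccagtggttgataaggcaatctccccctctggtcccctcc
The same letters occur on either strand in 10.6% of the 11256 such windows found for tested genes. The share was 10.8% for genes at least 2-fold higher in GFP+ (1425 windows) and 10.1% for those at least 2-fold lower (1651 windows). For ACAAAG or CTTTGT, letters bound by SOX proteins, the shares were 11.3% for the higher genes, 13.1% for the lower genes and 11.7% for all. Such matches describe the sequence only. The 3 windows shown were picked by gene name and not at random, so their matches and the similar positions are no result. Bglap2 had no entry in the table.

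Osteocyte genes did not move as a group. Of 13 tested, 5 rose and 7 fell, with a median of -0.54. The 5 became 3 without a filter on low counts, in the 6 knockout libraries alone, or without GFP+ replicate 2 or GFP-Tm+ replicate 2 or 3, and the 7 became 4 in the 6 libraries alone. Dmp1, a matrix phosphoprotein of osteocytes, had 209.9, 382 and 200.1 CPM in the GFP+ libraries and 1275, 1452 and 1303 CPM in the GFP-Tm+ libraries (log2 fold change -2.43 ± 0.23, adjusted p = 1.30e-06). Mepe fell by 2.37 on the log2 scale, and its GFP-Tm+ libraries ranged widely, with 4.43, 6.35 and 6.33 CPM in GFP+ and 14.7, 55.3 and 30.2 CPM in GFP-Tm+. Fbln7, a fibulin, and Ackr3, a scavenging receptor of CXCL12, rose by 2.97 and 2.199. Sost, which encodes sclerostin, was barely detected, at 0.594, 0.727 and 0.576 CPM in GFP+ and 0.31, 0.0515 and 0.129 CPM in GFP-Tm+ (log2 fold change 2.01 ± 0.77, adjusted p = 0.0451). Phex, an endopeptidase of phosphate control, fell by 0.54 on the log2 scale.

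Marrow stroma genes formed the list with the lowest median, at -2.55. Of 23 tested, 22 fell and Foxc1 alone rose, and the falls ran from -2.95 to -2.18. Cxcl12, a chemokine that holds stem cells in the marrow, had 498, 423 and 340.1 CPM in the GFP+ libraries and 3206, 2956 and 3240.3 CPM in the GFP-Tm+ libraries (log2 fold change -2.902 ± 0.19, adjusted p = 1.51e-08). Lepr, the leptin receptor that marks these stromal cells, had 58.3, 48.5 and 39.7 CPM in the GFP+ libraries and 351, 373 and 368 CPM in the GFP-Tm+ libraries (log2 fold change -2.9 ± 0.14, adjusted p = 1.01e-09). Pdgfra, a platelet-derived growth factor receptor of mesenchymal precursors, had 29.6, 27.9 and 32.6 CPM in the GFP+ libraries and 224, 211 and 219 CPM in the GFP-Tm+ libraries (log2 fold change -2.86 ± 0.11, adjusted p = 7.83e-11). Csf1, Lpl and Igfbp5 fell by 2.42, 2.38 and 2.92 on the log2 scale. For none of these 6 genes did the subsets overlap.

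Fat-cell genes were divided. Of 23 tested, 12 fell and 5 rose, with a median of -1.49. Adipoq, the hormone adiponectin, had 32.2, 28.2 and 20.5 CPM in the GFP+ libraries and 159, 152 and 144 CPM in the GFP-Tm+ libraries (log2 fold change -2.49 ± 0.19, adjusted p = 6.89e-08), and the lipid carrier Apoe fell by 1.97 on the log2 scale. Fasn, the fatty acid synthase, went the other way, with 373, 401 and 459 CPM in the GFP+ libraries and 85.7, 86.5 and 107 CPM in the GFP-Tm+ libraries (log2 fold change 2.15 ± 0.13, adjusted p = 9.73e-09). The other 4 that rose were Scd1, Acsl1, Agpat2 and Dgat2, enzymes that make fatty acids or triglycerides, at 1.83, 1.14, 0.44 and 0.67.

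Genes of fibroblasts and of tendon were mainly lower in GFP+. Among 21 genes of fibroblasts and periosteum 15 were called lower and 4 higher, with a median of -1.89. Dcn, decorin, had 481, 527 and 487 CPM in the GFP+ libraries and 5777, 4201 and 4707 CPM in the GFP-Tm+ libraries (log2 fold change -3.29 ± 0.20, adjusted p = 8.36e-09). Ogn, osteoglycin, Fbn1, fibrillin, and Ctsk, cathepsin K, fell, with log2 fold changes of -2.65, -2.904 and -1.704. The 4 that rose were the collagen VI genes Col6a1, Col6a2 and Col6a3 and fibronectin, Fn1, at 0.79 to 1.198. Of 11 tendon genes, 8 fell and 2 rose, or 1 rose without the replicate block, without GFP+ replicate 1 or 2, or without any 1 of the GFP-Tm+ libraries. Tnc, tenascin C, had 322, 459.9 and 372 CPM in the GFP+ libraries and 2482, 2950.2 and 2483 CPM in the GFP-Tm+ libraries (log2 fold change -2.78 ± 0.16, adjusted p = 5.64e-09), Scx, the tendon transcription factor scleraxis, and Tnmd, tenomodulin, fell by 1.33 and 2.73, and Fmod, a collagen-binding proteoglycan also present in cartilage, rose by 1.25. Of 17 contractile genes, 8 fell, 4 rose and 5 were not called. Tpm1, a tropomyosin, had 137, 149 and 141 CPM in the GFP+ libraries and 612, 625 and 614 CPM in the GFP-Tm+ libraries (log2 fold change -2.12 ± 0.10, adjusted p = 7.42e-10). Cspg4, the proteoglycan NG2, rose by 2.25.

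Minor collagens and basement membrane genes fell in 16 of 20 cases and rose in 2. Col4a1 and Col4a2, the main basement membrane collagens, fell by 2.87 and 2.66 on the log2 scale, and Col8a1 had 57.5, 44 and 30.4 CPM in the GFP+ libraries and 434, 525 and 365 CPM in the GFP-Tm+ libraries (log2 fold change -3.33 ± 0.20, adjusted p = 7.13e-09). Nid2, a nidogen, rose, with 1702, 1609 and 1791 CPM in the GFP+ libraries and 199, 204 and 219 CPM in the GFP-Tm+ libraries (log2 fold change 3.04 ± 0.16, adjusted p = 1.36e-09), and Hspg2, perlecan of cartilage and basement membranes, was the other that rose, at 1.81.

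Enzymes that process collagen moved both ways. Of 28 tested, 17 rose and 7 fell, with a median of 0.75. Colgalt2, a collagen galactosyltransferase, had 377, 387 and 304 CPM in the GFP+ libraries and 29.8, 25 and 17.2 CPM in the GFP-Tm+ libraries (log2 fold change 3.91 ± 0.18, adjusted p = 4.09e-10), P3h2, a prolyl 3-hydroxylase, rose by 3.53, and Pcolce2, an enhancer of procollagen cleavage, by 3.24. Adamts2, the procollagen I N-proteinase, fell, with 107, 123 and 94.1 CPM in the GFP+ libraries and 912, 824 and 955 CPM in the GFP-Tm+ libraries (log2 fold change -3.06 ± 0.13, adjusted p = 2.56e-10). Matrix proteases and their inhibitors fell in 13 of 19 cases and rose in 2. Mmp23, Adamts9 and Mmp11 fell by 2.22, 2.82 and 2.41, and Timp2, the inhibitor of metalloproteinases, had 524, 618 and 645 CPM in the GFP+ libraries and 1611, 1558 and 1319 CPM in the GFP-Tm+ libraries (log2 fold change -1.33 ± 0.10, adjusted p = 1.13e-07). The 2 that rose were Timp1 and Timp3, at 1.04 and 1.0, and 1 rose without a filter on low counts or without replicate 3 of either subset.

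In the pathway of the deleted receptor the genes did not share a direction. Of 26 tested, 6 rose, 7 fell and 13 were not called, with a median of -0.06. Beside Pth1r itself, Pde4b, a phosphodiesterase that breaks down cyclic AMP, rose, with 618, 569.8 and 311 CPM in the GFP+ libraries and 66.5, 65.1 and 38.4 CPM in the GFP-Tm+ libraries (log2 fold change 3.12 ± 0.28, adjusted p = 1.68e-06). Replicate 3 was the lowest of each subset. Rgs2, a G-protein regulator induced by cyclic AMP, fell, with 11.4, 9.51 and 12.3 CPM in the GFP+ libraries and 37.6, 51.3 and 60.9 CPM in the GFP-Tm+ libraries (log2 fold change -2.13 ± 0.23, adjusted p = 3.47e-06). Prkaca, the catalytic subunit of protein kinase A, fell by 0.99. The early-response genes Fos and Nr4a1 were not called, at -0.02 and -0.17.

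Signals from these cells to osteoclasts lay on the GFP-Tm+ side. Of 13 such genes, 9 fell and 2 rose, with a median of -1.34. Tnfsf11, the osteoclast factor RANKL, had 6.35, 7.32 and 9.86 CPM in the GFP+ libraries and 26.2, 39.8 and 46.9 CPM in the GFP-Tm+ libraries (log2 fold change -2.25 ± 0.18, adjusted p = 1.49e-07). Csf1, the macrophage growth factor, had 39.1, 39.4 and 34.2 CPM in the GFP+ libraries and 192, 221 and 190.0 CPM in the GFP-Tm+ libraries (log2 fold change -2.42 ± 0.10, adjusted p = 1.88e-10). Il34, another ligand of the same receptor, and Sema3a, a semaphorin that restrains osteoclasts, fell by 2.595 and 3.31. Tnfrsf11b, the RANKL decoy osteoprotegerin, was 1 of the 2 that rose, at 0.83, and Il11 was the other, at 2.88.

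In the list of secreted Wnt antagonists, which also holds the membrane proteins Kremen1, Znrf3 and Apcdd1, 11 of 15 fell and 3 rose. Wif1, which binds Wnt proteins, had 81.7, 114 and 102 CPM in the GFP+ libraries and 430.1, 548 and 624 CPM in the GFP-Tm+ libraries (log2 fold change -2.42 ± 0.12, adjusted p = 8.11e-10). Dkk3 and Apcdd1 fell by 2.19 and 3.21 on the log2 scale. Frzb, a soluble Frizzled-like protein of cartilage, rose, with 229, 186 and 201 CPM in the GFP+ libraries and 47, 39 and 51.8 CPM in the GFP-Tm+ libraries (log2 fold change 2.16 ± 0.14, adjusted p = 1.51e-08), as did Sfrp5 at 3.18 and Sost. Of 21 Wnt ligands, receptors and targets, 6 rose and 9 fell. Wnt4, a ligand, rose by 1.86. Lrp5, a Wnt co-receptor, and Nkd2, a feedback inhibitor, fell by 2.84 and 3.18. Tnfrsf19, a TNF receptor family member and Wnt target, had 36.6, 29.1 and 22 CPM in the GFP+ libraries and 349, 293 and 231 CPM in the GFP-Tm+ libraries (log2 fold change -3.32 ± 0.09, adjusted p = 1.24e-11).

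The BMP and TGF-beta list was divided, with 9 of 27 higher and 13 lower. Bmp2, a ligand that promotes chondrocyte maturation and bone formation, had 364, 377 and 453 CPM in the GFP+ libraries and 107, 82.8 and 129 CPM in the GFP-Tm+ libraries (log2 fold change 1.92 ± 0.11, adjusted p = 4.42e-09). Bmp3, an antagonistic family member from osteoblasts, went the other way, with 27.2, 36.9 and 19.6 CPM in the GFP+ libraries and 249, 210.5 and 240.4 CPM in the GFP-Tm+ libraries (log2 fold change -3.095 ± 0.21, adjusted p = 2.46e-08). The activin inhibitor follistatin, Fst, and the latent TGF-beta binding protein Ltbp1 fell by 2.87 and 2.41. Of 25 FGF and IGF genes, 7 rose and 15 fell, with a median of -2.09. Igf1, an anabolic growth factor, had 10.3, 9.02 and 5.54 CPM in the GFP+ libraries and 79, 96.1 and 89 CPM in the GFP-Tm+ libraries (log2 fold change -3.37 ± 0.20, adjusted p = 4.95e-09). The binding proteins Igfbp4 and Igfbp5 fell by 3.01 and 2.92. Stc2, stanniocalcin 2, which inhibits the protease that frees IGF, rose, with 232, 199 and 197 CPM in the GFP+ libraries and 21.6, 20.4 and 18.4 CPM in the GFP-Tm+ libraries (log2 fold change 3.38 ± 0.09, adjusted p = 1.24e-11), while Pappa2, a protease of that family, fell by 4.099. Of 13 Notch genes none rose and 6 fell, with Notch3, a receptor of mural and stromal cells, at -3.07 and its target Heyl at -2.63.

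Glycolysis was higher in GFP+ almost throughout. Of 23 genes, 20 rose and 2 fell, with a median of 1.47. Slc2a1, the glucose transporter GLUT1, had 329, 298 and 366 CPM in the GFP+ libraries and 41.4, 36.6 and 46.7 CPM in the GFP-Tm+ libraries (log2 fold change 2.995 ± 0.15, adjusted p = 9.58e-10). Pgk1, Pkm and Pgam1, enzymes of the lower part of the pathway, rose by 1.73, 1.796 and 1.61. The 2 that fell were the transporter gene Slc2a3 and Ldhb, at -1.51 and -1.79. Of 21 oxidative phosphorylation genes, 11 rose and 3 fell, with a median of 0.21 (7 rose without a filter on low counts), and the largest rise in this list was that of Cycs, cytochrome c, at 0.84. Of 20 hypoxia genes, 9 rose and 5 fell, with a median of 0.34 and log2 fold changes from -4.30 to 3.25. Those that fell were Epas1, Egln1, Bnip3l, Adm and Kdm3a, and 3 fell without replicate 2 of both subsets. Bnip3, a mitophagy receptor, had 212, 181 and 199 CPM in the GFP+ libraries and 36.4, 30.7 and 29.3 CPM in the GFP-Tm+ libraries (log2 fold change 2.62 ± 0.13, adjusted p = 9.90e-10), and Hif1a, the hypoxia-inducible factor, rose by 1.46.

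Genes of the endoplasmic reticulum and of ATF4 were mostly higher in GFP+. Of 21 endoplasmic reticulum genes, 15 rose and 3 fell, with a median of 0.51. Creb3l1 and Creb3l2, related transcription factors that build the secretory pathway in osteoblasts and chondrocytes, moved in opposite directions. Creb3l1 had 171, 197 and 215 CPM in the GFP+ libraries and 608, 535 and 575 CPM in the GFP-Tm+ libraries (log2 fold change -1.56 ± 0.11, adjusted p = 2.48e-08). Creb3l2 had 171, 152 and 172 CPM in the GFP+ libraries and 50.4, 49 and 66 CPM in the GFP-Tm+ libraries (log2 fold change 1.59 ± 0.11, adjusted p = 2.54e-08). Of 19 genes of ATF4 and amino acid supply, 15 rose and 2 fell, with a median of 0.93. Chac1, an ATF4 target that degrades glutathione, had 110.3, 99.9 and 90.2 CPM in the GFP+ libraries and 9.92, 10.8 and 12.9 CPM in the GFP-Tm+ libraries (log2 fold change 3.16 ± 0.13, adjusted p = 1.91e-10). Slc7a5, a leucine transporter, Ddit3 and Sesn2, stress-response genes, rose by 1.896, 1.63 and 1.56. Of 16 interferon response genes none rose and 7 fell, or 4 without the replicate block, and 1 rose without GFP+ replicate 2. In that list Oasl2 had 1.32, 2.86 and 0.72 CPM in GFP+ and 3.82, 37.4 and 7.56 CPM in GFP-Tm+ and Usp18 0.685, 3.39 and 0.72 CPM in GFP+ and 1.5, 12.6 and 2.13 CPM in GFP-Tm+, so that replicate 2 was the highest in both subsets. The Usp18 call was lost without the replicate block (adjusted p = 0.126).

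Cell division genes were mostly higher in GFP+. Of 24 tested, 17 rose, Ccne1 alone fell and 6 were not called, with a median of 1.19. Cdc20, an activator of the anaphase-promoting complex, had 45.9, 46.7 and 45.8 CPM in the GFP+ libraries and 12.7, 8.19 and 9.24 CPM in the GFP-Tm+ libraries (log2 fold change 2.21 ± 0.15, adjusted p = 3.06e-08). Aurka, a mitotic kinase, and Ccnb1, cyclin B1, rose by 2.18 and 1.83. Mcm6, a subunit of the replicative helicase, had 48.3, 56.2 and 57.9 CPM in the GFP+ libraries and 24.9, 22.3 and 24.8 CPM in the GFP-Tm+ libraries (log2 fold change 1.17 ± 0.10, adjusted p = 3.97e-07). The replication genes Mcm2, Mcm3, Pcna, Tyms and Tk1 and the proliferation marker Mki67 were the 6 not called, the last at 1.13 ± 0.54.

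The largest single changes lay partly outside these lists. Among genes with at least 5 CPM in the higher subset, the greatest rises in GFP+ were those of Dbpht2, at 5.02, and Tnfrsf13c, at 4.78. Tnfrsf13c is known as the B-cell receptor for BAFF and had 20.9, 13.3 and 10.7 CPM in the GFP+ libraries and 0.62, 0.361 and 0.646 CPM in the GFP-Tm+ libraries. Krt18 and Krt8, the partner keratins of simple epithelia, rose together. Krt8 had 19, 14.7 and 15.3 CPM in the GFP+ libraries and 0.258, 0.773 and 1.29 CPM in the GFP-Tm+ libraries (log2 fold change 4.54 ± 0.57, adjusted p = 3.12e-05) and Krt18 had 13.7, 10.3 and 10.9 CPM in the GFP+ libraries and 0.258, 0.206 and 1.16 CPM in the GFP-Tm+ libraries (log2 fold change 4.64 ± 0.73, adjusted p = 1.10e-04). Mypn, a sarcomere protein, Il17b, an interleukin 17 family cytokine, Syt8, a synaptotagmin, and Rlbp1, a retinoid-binding protein of the eye, rose by 4.47, 4.28, 4.27 and 4.24. Il17b had 79.5, 47.8 and 48.2 CPM in the GFP+ libraries and 2.64, 2.94 and 3.3 CPM in the GFP-Tm+ libraries. Phlda2, an imprinted growth restrainer of the placenta, and Rspo4, a secreted enhancer of Wnt signalling, rose by 4.12 and 3.98, and Ccdc88c, Rnf39, Kcna5, Apof and Nup210 by 4.03 to 4.52.

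The greatest falls were those of Pi16, a fibroblast peptidase inhibitor, and Sphkap, a kinase anchor protein, both at -4.81. Pi16 had 0, 0.291 and 0.648 CPM in the GFP+ libraries and 14.7, 4.69 and 5.81 CPM in the GFP-Tm+ libraries. Car3, a carbonic anhydrase of muscle and fat, had 70.2, 61 and 52.1 CPM in the GFP+ libraries and 1388, 937 and 1249.9 CPM in the GFP-Tm+ libraries (log2 fold change -4.28 ± 0.14, adjusted p = 2.47e-11). Pdgfd, a platelet-derived growth factor, had 7.995, 9.07 and 5.9 CPM in the GFP+ libraries and 164, 128 and 131 CPM in the GFP-Tm+ libraries (log2 fold change -4.21 ± 0.14, adjusted p = 3.16e-11). Kcnj8, a potassium channel of pericytes, and Angptl7, an angiopoietin-like protein, fell by 4.51 and 4.46. The other 9 were Il12a, Tmem182, Abca6, Lingo3, Cadps2, Cacna2d3, Kctd12b, Dpyd and Pappa2, at -4.59 to -4.099.

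Markers of cells outside the skeletal lineage were low but not even between subsets. Their part in the results was not tested. Summed over a list, skeletal muscle markers stood at 49.3 to 69.8 CPM of the library total in GFP+ and 8.06 to 18.2 in GFP-Tm+. Of 10 muscle markers 4 were tested and 3 rose, Tnni2 most at 2.93, and only Tnni2 was called without GFP-Tm+ replicate 1 or without GFP-Tm+ replicate 3, when Acta1 and Tnnt3 had adjusted p-values of 0.0612 to 0.0964. Among the rest, Myh4, Myh1 and Myf5 were at 0 in every GFP+ library and Myod1 and Pax7 at 0 in every GFP-Tm+ library. Schwann and neural markers stood at 71.1 to 100.4 CPM in GFP+ and 16.7 to 30.4 in GFP-Tm+, with 4 of 7 tested higher. The call of Mbp, among those 4, was lost without the replicate block, in the 6 libraries alone or without a filter on low counts. It was also lost without replicate 1 or 3 of either subset. S100b, also a chondrocyte protein, had 94.8, 64.6 and 86.9 CPM in the GFP+ libraries and 18.6, 18.8 and 19.1 CPM in the GFP-Tm+ libraries on the TMM scale, which is not the scale of the sums. Sox10 had 2.24, 3.69 and 3.45 CPM in the GFP+ libraries and 0.362, 0.103 and 0.323 CPM in the GFP-Tm+ libraries.

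Erythroid markers reached 36.3, 516 and 141 CPM in the GFP+ libraries and 62.9, 53.9 and 20.4 CPM in the GFP-Tm+ libraries, so GFP+ replicate 2 stood apart, and none of 9 tested was called. That count depended on single libraries. Without GFP+ replicate 1, 6 were called higher, and without replicate 1 of both subsets 2 were. With DESeq2, in the 6 libraries alone, or without GFP-Tm+ replicate 1, 1 was called higher. Without GFP+ replicate 2, or replicate 2 of both subsets, 1 was called lower. Granulocyte markers were at 20.9 to 107.6 CPM in GFP+ and 6.65 to 46.0 in GFP-Tm+, where Mpo was the 1 of 8 tested that rose. That call was lost without a filter on low counts (adjusted p = 0.0788), and without GFP+ replicate 3 or GFP-Tm+ replicate 2 or 3. Macrophage markers were at 24.04 to 54.98 CPM in GFP+ and 15.6 to 21.5 CPM in GFP-Tm+, with Cd14 the 1 of 8 that rose. The sum of osteoclast markers was lower in GFP+, at 10.1 to 12.1 against 17.5 to 24.3 CPM in GFP-Tm+, but its members did not share a direction. Of the 3 tested, Acp5 fell by 1.004 on the log2 scale, and Ocstamp and Itgb3 were not called. Ocstamp, at 0 in every GFP-Tm+ library, had a log2 fold change of 5.54. In the fits without the replicate block, without a filter, with library totals or with the length trend removed, 1 member was called higher. In the 6 libraries alone, or without replicate 2 of both subsets, 2 were lower. Siglec15 was at 0 in all 6 libraries. B-cell markers stood at 7.70 to 17.2 CPM in GFP+ and 4.87 to 6.93 in GFP-Tm+, with Ighm called higher, a call that was lost without GFP+ replicate 3 or GFP-Tm+ replicate 2 or 3 (adjusted p = 0.0647 to 0.109). Endothelial markers overlapped, at 3.68 to 11.7 CPM in GFP+ and 4.09 to 17.2 CPM in GFP-Tm+. Esam was the 1 of 9 tested that was called, as lower in GFP+. That call was lost without GFP+ replicate 2 or 3, or without GFP-Tm+ replicate 1 or 3. Leukocyte, megakaryocyte and T-cell sums stayed under 20 CPM. Fcer1g, 1 of 6 leukocyte markers tested, was called lower in GFP+, a call lost without replicate 1 of both subsets. Without GFP+ replicate 2, 6728 genes were called in all.

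**Figure D3:**
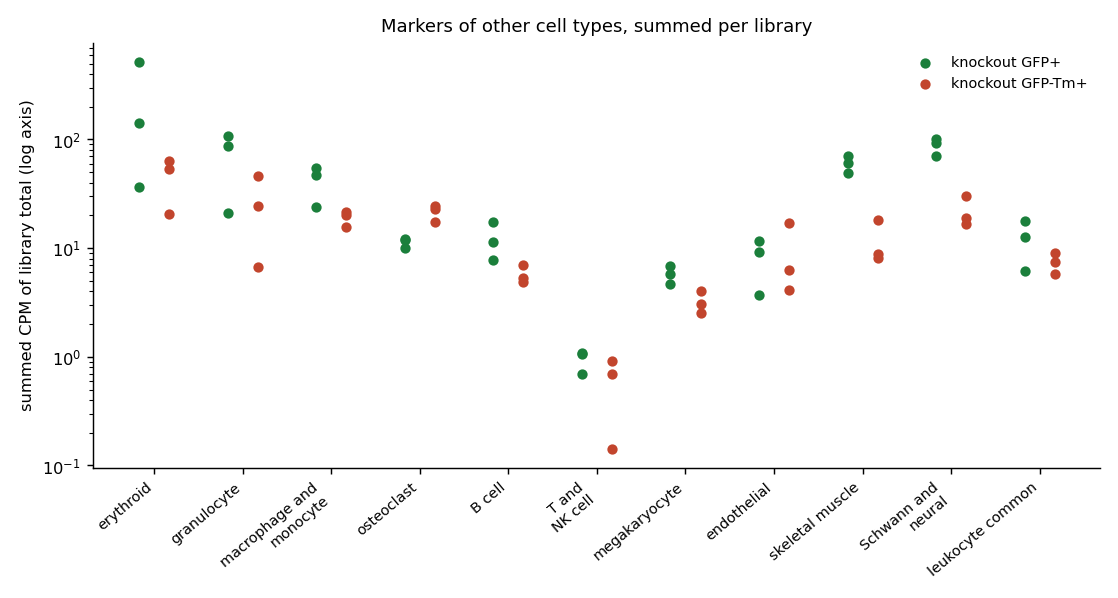
Summed CPM of library total (log axis) of 11 lists of markers of other cell types, in each knockout bone library. Green points are the 3 GFP+ and red points the 3 GFP-Tm+ libraries. Skeletal muscle and Schwann and neural sums do not overlap between subsets, and erythroid markers reach 516 CPM in GFP+ replicate 2.

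The subset difference was then compared with the same difference in control bone, whose 6 libraries are separate. In control bone 2857 genes (18.4%) were higher and 3529 (22.7%) lower in GFP+. That balance turned with the scaling, to 4027 higher and 2638 lower with library totals, 3578 and 3055 with DESeq2 size factors, and 3840 and 2919 with the length trend removed. Of the 3950 knockout rises 2352 (59.5%) were also rises in control, where they made up 82.3% of the rises. Of the 3933 knockout falls 2736 (69.6%) were also falls in control, or 77.5% of the falls there. Across all genes tested the fold changes of both genotypes correlated with a Pearson r of 0.71 and a Spearman rho of 0.74. This describes genes, which are not independent replicates.

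The test of the difference itself called 1188 genes (7.66%), 919 (5.92%) with a higher and 269 (1.73%) with a lower log2 fold change in knockout than in control. Of the 919, 792 were called higher in GFP+ of the knockout. Of the 269, 227 were called lower there. The split depends on how libraries are scaled: the higher calls made up 77.4% with TMM, 65.7% with DESeq2 size factors and 55.8% with library totals, and these 2 alternatives shift the median gene by -0.07 and -0.14 relative to TMM. The count also fell whichever single bone library was left out, to between 727 and 856. The lowest counts were 745 without knockout GFP+ replicate 2, 727 and 751 without knockout GFP-Tm+ replicates 1 and 2, and 737 without control GFP-Tm+ replicate 1.

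**Figure D4:**
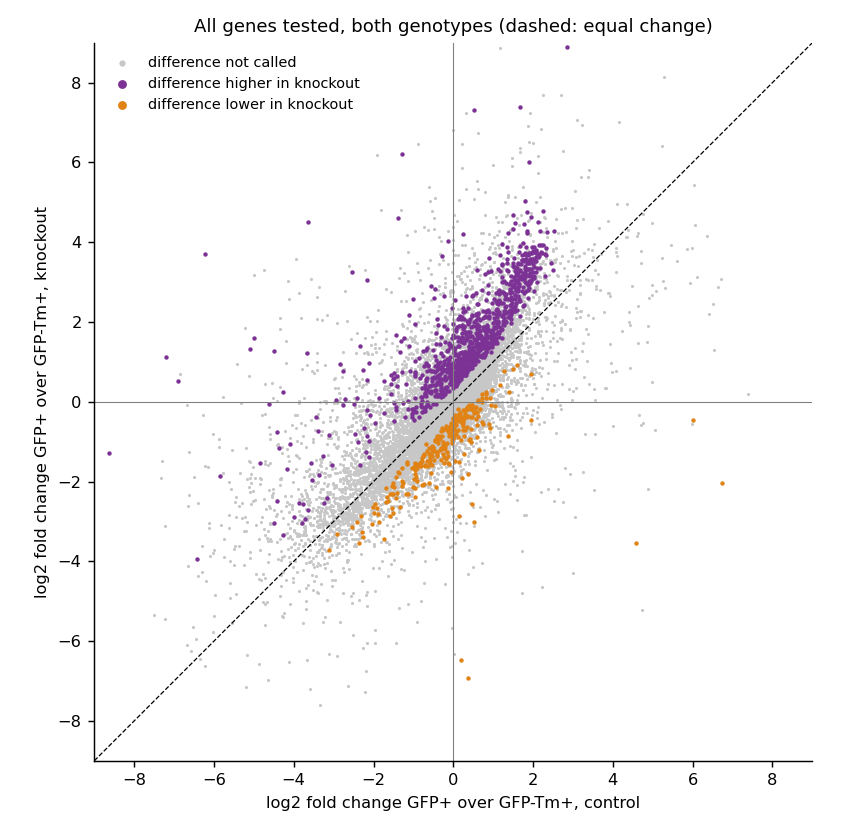
Log2 fold change of GFP+ over GFP-Tm+ in knockout bone (vertical) against control bone (horizontal) for 15516 genes. Purple marks the 919 genes whose fold change was higher in knockout and orange the 269 where it was lower. Of the purple genes, 485 were called higher in GFP+ in both genotypes.

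Cartilage genes were frequent among these, against 5.92% of all genes. The difference was higher in knockout for all 8 cartilage collagens, 12 of 19 other cartilage matrix genes, 7 of 17 cartilage transcription and Hedgehog genes and 7 of 15 hypertrophic genes, and lower for none of them. Without a filter on low counts the collagens called were 5 of 8. Of the 8 genes with the smallest p of the difference, Col9a2, Col9a3, Epyc, Chadl and Scrg1 are cartilage matrix or chondrocyte genes. Col9a2 had 14296 ± 892 CPM in GFP+ against 1229.8 ± 137 CPM in GFP-Tm+ in the knockout and 4687 ± 487 CPM in control GFP+ against 1372 ± 199.6 CPM in control GFP-Tm+ (SD, n = 3 each; difference 1.77 ± 0.13, adjusted p = 1.07e-05). Here the GFP+ cells of the knockout stood higher, and the GFP-Tm+ ranges of the genotypes lay close. Epyc had 871 ± 84.7 CPM in GFP+ against 59.2 ± 6.22 CPM in GFP-Tm+ in the knockout and 1639 ± 158 CPM in control GFP+ against 416 ± 71.4 CPM in control GFP-Tm+ (difference 1.89 ± 0.15, adjusted p = 1.22e-05). Here both knockout subsets stood below their controls, and the GFP-Tm+ cells more so. Sox9 had 2930.0 ± 91.7 CPM in GFP+ against 372 ± 41.8 CPM in GFP-Tm+ in the knockout and 1558 ± 153 CPM in control GFP+ against 510.1 ± 57 CPM in control GFP-Tm+ (difference 1.37 ± 0.12, adjusted p = 1.95e-05). Scrg1 differed by 2.08, Chadl by 1.77 and Ncmap, a myelin-associated protein, by 1.64. Col2a1 differed by 1.86 ± 0.2, adjusted p = 9.02e-05, a call that DESeq2 did not make (adjusted p = 0.707).

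Of 23 adipocyte and lipid genes the difference was higher in knockout for 2 and lower for 2. Hmgcs1, which is in no list, the enzyme that commits carbon to cholesterol, had 842, 936 and 821 CPM in the GFP+ libraries and 97.5, 96.9 and 87.1 CPM in the GFP-Tm+ libraries in the knockout. The control values were 258, 303 and 278 CPM in control GFP+ and 88, 90.4 and 101 CPM in control GFP-Tm+, and the difference was 1.62 ± 0.11, adjusted p = 1.03e-05. Fasn had 41.5 ± 9.01 CPM in control GFP+ against 29.5 ± 3.17 CPM in control GFP-Tm+, below both knockout subsets, and the difference was 1.67 ± 0.19, adjusted p = 1.19e-04. Enpp2 differed by 1.64. Alpl changed direction, with a control log2 fold change of -0.45 ± 0.09 against 0.42 in the knockout (difference 0.87 ± 0.12, adjusted p = 6.53e-04).

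Division genes differed between genotypes. In control bone 4 of 24 rose and 3 fell, and the difference was called higher in knockout for 13 and lower for none. The count was 8 with library totals and 10 with DESeq2 size factors, and none was lower in either. It was also 8 without any one of knockout GFP+ replicate 3, knockout GFP-Tm+ replicates 1 or 3, control GFP+ replicates 1 or 2 and control GFP-Tm+ replicates 1 or 3. Mcm6 had 52.7 ± 6.08 CPM in control GFP+ against 51 ± 1.26 CPM in control GFP-Tm+, so its control subsets were level (difference 1.13 ± 0.14, adjusted p = 3.26e-04). Cdc20 had 55.2 ± 6.78 CPM in control GFP+ against 37.3 ± 6.32 CPM in control GFP-Tm+ (difference 1.64 ± 0.21, adjusted p = 3.00e-04), and its knockout GFP-Tm+ libraries were the low ones of all 4 groups. Top2a, a topoisomerase of dividing cells, had 34.1 ± 5.16 CPM in GFP+ against 12.4 ± 2.39 CPM in GFP-Tm+ in the knockout and 16 ± 1.49 CPM in control GFP+ against 17.1 ± 1.55 CPM in control GFP-Tm+, so here the knockout GFP+ libraries were the high ones (difference 1.56 ± 0.23, adjusted p = 7.69e-04).

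Hypoxia genes went the other way. In control bone 13 of 20 rose in GFP+ and none fell, and the difference was lower in knockout for 8 and higher for 2. The 8 were Epas1, Egln1, Bnip3l, Fam162a, Adm, Ddit4, Kdm3a and Ero1l, and with library totals the count was also 8. It was 5 without any one of knockout GFP+ replicates 2 or 3, knockout GFP-Tm+ replicates 2 or 3, control GFP+ replicates 1 or 3 and control GFP-Tm+ replicates 1 or 3. Egln1, the oxygen sensor PHD2, had 6.4, 3.59 and 7.92 CPM in the GFP+ libraries and 10.2, 7.27 and 10.01 CPM in the GFP-Tm+ libraries in the knockout and 33.6, 18.7 and 25.6 CPM in control GFP+ and 18.6, 10.4 and 12.2 CPM in control GFP-Tm+ (difference -1.58 ± 0.23, adjusted p = 9.04e-04). Bnip3l, a mitophagy receptor, had 70.6 ± 0.999 CPM in GFP+ against 90.3 ± 4.48 CPM in GFP-Tm+ in the knockout and 134 ± 11 CPM in control GFP+ against 103 ± 6.24 CPM in control GFP-Tm+ (difference -0.73 ± 0.10, adjusted p = 6.85e-04). Ddit4, an inhibitor of mTOR signalling induced by hypoxia, differed by -2.42 ± 0.40, adjusted p = 0.00238. The 2 that were higher were Hif1a and Car12, a carbonic anhydrase, at 0.52 and 1.44. Of the 8 that were lower, Adm and Ero1l were not called without the replicate block (edgeR quasi-likelihood F-test, adjusted p = 0.101 and 0.0942).

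**Figure D5:**
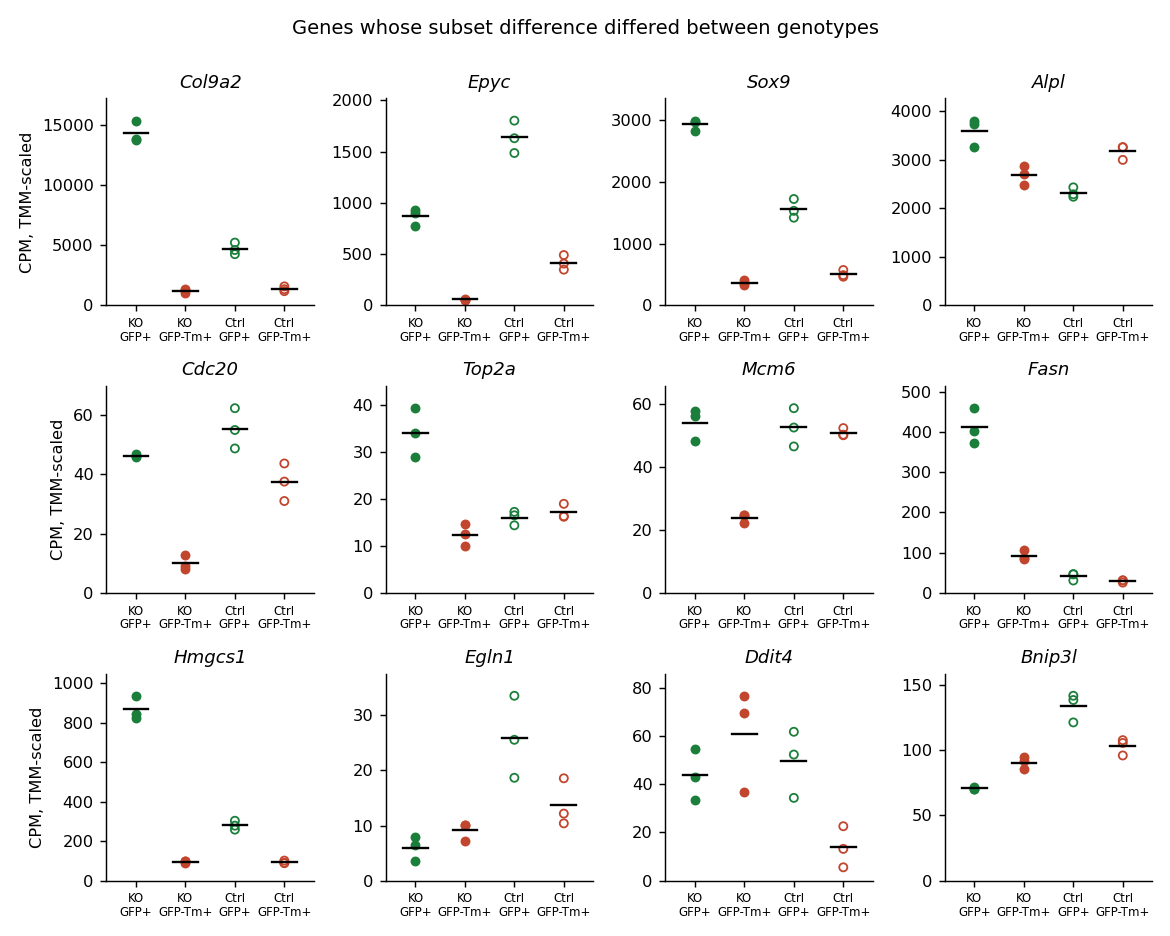
TMM-scaled CPM of 12 genes in knockout (filled) and control (open) bone libraries, GFP+ in green and GFP-Tm+ in red, with group means as black bars and axes that start at 0. The difference between subsets differed between genotypes for each. Col9a2, Top2a, Fasn and Hmgcs1 are highest in knockout GFP+, Epyc and Cdc20 are lowest in knockout GFP-Tm+, and Egln1 and Bnip3l have lower means in GFP+ than in GFP-Tm+ in knockout and higher ones in control.

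Among 11 genes of mineralisation the difference was higher in knockout for 6 and lower for none. It was higher for Phex at 1.42, Slc20a1 at 1.23 and Slc20a2 at 0.69, beside Enpp2, Alpl and Smpd3. That count was 3 without any one of replicate 1 of knockout GFP+, knockout GFP-Tm+ or control GFP-Tm+, or control GFP+ replicate 2. Of 28 collagen enzymes it was higher for 9, Colgalt2 most at 2.24, and lower for Pcolce alone, at -0.71. The 9 became 5 with library totals, without a filter on low counts, or without control GFP-Tm+ replicate 1 or 3. Bone matrix genes held 1 (Smpd3), marrow stroma 2 (Pdgfra and Ebf3, both lower), tendon and osteoclast regulator genes none, and glycolysis 4 of 23. The last count was 2 without replicate 1 of knockout GFP+ or without replicate 1 or 2 of knockout GFP-Tm+. Without the replicate block the differences of Smpd3 and Pdgfra were not called (adjusted p = 0.0595 and 0.0992), nor was that of Ebf3. Bglap, for example, had a control log2 fold change of -3.25 ± 0.18, and its difference of -0.67 ± 0.23, adjusted p = 0.101 was not called. Pde4b, the phosphodiesterase, differed by 1.61 ± 0.37, adjusted p = 0.0233, the sole call among 26 genes of the receptor pathway, and it was lost without the replicate block (adjusted p = 0.0629). Fst, lower in GFP+ of both genotypes, was lower still in the knockout (difference -1.28 ± 0.20, adjusted p = 0.00173).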

How the data were processed

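RNA-seq was measured in 18 libraries of bone and marrow cells, 3 in each of 6 groups named by genotype, tissue and gate in the sample titles. The authors deposited raw counts per gene ID, per the file headers made with featureCounts. STAR, featureCounts, DESeq2 and the mm10 build are named, without versions, in the submitters' processing notes. Settings for strand and multiple mapping are not stated there, and values of overlapping, antisense and near-identical genes are uncertain. Of 54446 gene IDs, 54409 matched a symbol by ID in a table of mouse gene names.

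Genes were kept by filterByExpr (10 counts, 15 in total), scaled by TMM and fitted with edgeR 4.0.16 in R 4.3.3, by the quasi-likelihood F-test over all 18 libraries, with the subset effect within each genotype and replicate number as a block (8 residual degrees of freedom). Benjamini-Hochberg adjusted p-values ran over all 15516 genes tested, and 0.05 was the threshold. The errors beside log2 fold changes are standard errors, and ± beside CPM is the SD of 3 libraries. The code was tested on simulated data. Alternatives were the fit without the block, DESeq2 1.42.0, other scalings and filters, removal of a length trend, and leaving out libraries. Leaving out control bone libraries was added after seeing the data.

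The replicate numbers come from the titles. In knockout bone, deviations from the group means correlated at 0.149, 0.162 and 0.206 between libraries of the same number and at -0.114 to -0.0453 between the others. In control bone the 3 same-number values were 0.0586, 0.0324 and 0.119, which do not all pass 0.1.

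Genes named were Pth1r, Sp7, the 15 largest rises and 15 largest falls that averaged 5 CPM or more in the higher subset, the same direction in all 3 pairs and no overlap, up to 4 members of each list with the smallest p, and the 8 with the smallest p of the genotype difference. Other genes named were markers or were chosen after their values were seen. The members and lists were chosen with earlier results of these data known.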

Additional observations from a re-analysis of the deposited data

Results flagged for a closer look

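For 90 genes named in the text the log2 fold change of GFP+ over GFP-Tm+ differed between knockout and control bone by the test of the difference itself (edgeR quasi-likelihood F-test, adjusted p under 0.05, n = 3 libraries in each of 4 groups). Values are knockout minus control on the log2 scale, so a positive one means a higher fold change in the knockout. Among cartilage matrix, collagen and transcription factor genes the differences were those of Acan at 2.12, Epyc at 1.89, Col9a3 at 1.88, Col2a1 at 1.86, Col9a1 at 1.83, Matn1 at 1.83, Matn3 at 1.802, Col9a2 at 1.77, Ppa1 at 1.72, Ihh at 1.58, Hapln1 at 1.57, Col10a1 at 1.55, Col11a2 at 1.49, Slc38a3 at 1.45, Col11a1 at 1.42, Foxa2 at 1.402, Foxa3 at 1.37, Sox9 at 1.37, Panx3 at 1.095 and Chad at 1.09. Among bone, mineralisation and osteocyte genes the differences were those of Enpp2 at 1.64, Phex at 1.42, Slc20a1 at 1.23, Ackr3 at 1.14, Fbln7 at 1.05, Alpl at 0.87, Smpd3 at 0.87, Slc20a2 at 0.69 and Dlx5 at -0.35. Among stroma, fat, fibroblast and contractile genes the differences were those of Fasn at 1.67, Cspg4 at 1.35, Col6a3 at 0.998, Col6a2 at 0.88, Col6a1 at 0.82, Pdgfra at -0.54, Ogn at -0.62 and Ebf3 at -0.89. Among other matrix genes the differences were those of Colgalt2 at 2.24, P3h2 at 1.47, Nid2 at 1.43, Pcolce2 at 1.31, Timp1 at 1.16, Hspg2 at 1.13 and Pcolce at -0.71. Among cell cycle genes the differences were those of Cdc20 at 1.64, Aurka at 1.603, Top2a at 1.56, Ccnb1 at 1.21 and Mcm6 at 1.13. Among metabolic, hypoxia and secretory genes the differences were those of Car12 at 1.44, Chac1 at 1.399, Slc2a1 at 1.19, Sesn2 at 0.84, Creb3l2 at 0.77, Hif1a at 0.52, Cycs at 0.45, Ero1l at -0.49, Fam162a at -0.67, Bnip3l at -0.73, Epas1 at -0.85, Adm at -0.92, Kdm3a at -1.14, Egln1 at -1.58 and Ddit4 at -2.42. Among signalling and interferon genes the differences were those of Pde4b at 1.61, Stc2 at 1.36, Frzb at 1.27, Wnt4 at 1.13, Bmp2 at 1.08, Wif1 at 0.75, Tnfrsf19 at -0.42 and Fst at -1.28. Among markers of other cell types the differences were those of Sox10 at 2.704, Ighm at 1.62, Cd14 at 1.59 and Tnni2 at 1.04. Among genes outside the lists the differences were those of Dbpht2 at 3.23, Mypn at 2.92, Rlbp1 at 2.87, Tnfrsf13c at 2.54, Il17b at 2.43, Ccdc88c at 2.405, Apof at 2.38, Rspo4 at 2.23, Scrg1 at 2.08, Rnf39 at 1.92, Chadl at 1.77, Syt8 at 1.75, Ncmap at 1.64 and Hmgcs1 at 1.62. Of these genes 75 had a higher and 15 a lower fold change in the knockout. Many of them were named because of their values, so this split partly reflects how they were chosen. Over all genes tested the difference was called higher for 919 and lower for 269, a split that depends on the scaling. Without the replicate block 13 of the 90 genes were not called (Adm, Cd14, Cycs, Dlx5, Ebf3, Ero1l, Hspg2, Pde4b, Pdgfra, Rnf39, Smpd3, Tnfrsf19 and Wif1), with adjusted p-values of 0.0585 to 0.502, and the same-number correlations of control bone do not all pass 0.1. Of those 13, the calls of Rnf39 and Dlx5 were also lost whichever single bone library was left out. Those of Cycs and Tnfrsf19 were lost without any of several. Calls of genes outside the 13 depended on single libraries too. The Sox10 call was lost without any single bone library other than knockout GFP+ replicate 1. That of Apof was lost without any other than control GFP+ replicate 2. Those of Ccdc88c, Slc20a2, Ighm, Ackr3, Tnni2, Ogn, Hif1a and Sesn2 were each lost without any of several single libraries.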

How the results depend on the processing

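Without the replicate block 7633 genes were called in knockout bone, 94.4% of the reported calls among them and 0 in the opposite direction, and the genotype difference called 905 (72.5% of the reported calls). Control bone then had 6020. The pairing is borne out in the knockout and less so in control. Of the genes named by the rule and called as reported, the fit without it lost the knockout calls of Usp18 and Mbp. It also lost 10 of their calls of the genotype difference, with adjusted p-values of 0.0585 to 0.502. Calls gained were counted by list only, and there 1 osteoclast marker gained a call, as higher in GFP+. No log2 fold change of the genes named by the rule and called as reported changed sign under the alternatives tried. DESeq2 called 8024 genes in the knockout and 1639 for the difference, where 2407 adjusted p-values were not given. The 6 knockout libraries alone called 7457 of 13711 genes tested. Leaving out 1 library or pair at a time gave 6339 to 6934 calls in the knockout, 3725 to 3913 of at least 2-fold (1713 to 1769 higher and 1978 to 2149 lower), 5264 to 6408 in control and 618 to 856 for the difference. The difference called 618 without replicate pair 2, 715 without pair 1, and 727 to 751 without knockout GFP+ replicate 2, knockout GFP-Tm+ replicate 1 or 2, or control GFP-Tm+ replicate 1. The share of higher calls for the difference, 77.4% as reported, was 61.5% with the DESeq2 test, 56.2% without a filter and 67.2% with the length trend removed. In control it was 44.7% as reported and 60.4% with library totals, 53.9% with size factors, 53.6% with the DESeq2 test, 51.1% without a filter and 56.8% with the length trend removed. Of values for single named genes over these alternatives, 2730 kept their side of the threshold in the knockout and 40 lost it, and for the difference 1258 kept it and 216 lost it. Counts near the floor, such as those of Sost, limit what low genes can show.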
